A study of Mus musculus with 32 samples.

Results

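The acute-phase genes Saa1, Saa3, Lcn2, Hp, Ptx3, Orm1 and Orm2 were followed in the mesentery of mice given pristane. They were set as 7 genes by name, with earlier results of these data known, and each was read from its brightest probe set among those annotated to that symbol alone. All 7 were among the 13016 genes tested, of 18193 on the array. The study hybridised 32 Affymetrix Mouse Genome 430 2.0 arrays, 1 RNA sample each, of mesentery, a sheet of fat, blood vessels and lymph nodes that suspends the intestine. Treated mice received 0.5 ml pristane (TMPD), a mineral oil hydrocarbon, into the peritoneal cavity, and control mice were untreated rather than injected with another fluid. BALB/c mice were sampled at day 3 (3 arrays) and day 18 (4), BALB/DBA F1 hybrids at day 3 (3), and DBA mice at day 3 (3) and day 18 (3). Untreated controls numbered 7 BALB/c, 3 F1 and 6 DBA arrays, and the titles place each treated group in 1 of 3 code series with controls of its own strain: 3 BALB/c, 3 F1 and 3 DBA controls with the day 3 groups, 4 BALB/c controls with BALB/c day 18 and 3 DBA controls with DBA day 18. The labels give no age or sex, no DBA substrain, and do not say whether each array stands for its own mouse. The tests therefore set differences against the scatter among arrays, part of which may be technical. The codes of the BALB/c day 18 series contain the word mix and 1 DBA control code joins 2 numbers, with no explanation in the labels.

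Acute-phase genes encode plasma and tissue proteins whose output shifts during inflammation. The classical response takes place in liver cells, where interleukin-6 acts through gp130 and STAT3, and interleukin-1 and tumour necrosis factor act through NF-kB, together with the C/EBP transcription factors; fat cells, macrophages and neutrophils also make several of these proteins. Saa1 and Saa3 encode serum amyloid A proteins, Saa1 a lipoprotein-borne form made in liver and Saa3 a form made mainly outside the liver in the mouse. Lcn2 encodes lipocalin 2, which withholds iron from bacteria by binding their siderophores, Hp haptoglobin, which captures free haemoglobin, and Ptx3 a long pentraxin made at sites of inflammation that binds microbes and complement. Orm1 and Orm2 encode orosomucoids, also called alpha-1-acid glycoproteins, which carry lipophilic molecules in plasma and are positive acute-phase proteins of the liver.

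Each value is a probe set signal on a linear scale, and changes are differences of log2(signal + 24.9), treated over untreated arrays of the same strain and code series. A gene rose or fell where limma's moderated test gave a Benjamini-Hochberg adjusted p under 0.05 over all 13016 genes. Saa3, Lcn2, Hp and Orm1 were above 103.7, the median of all values, on all 32 arrays, Orm2 on 24, Ptx3 on 22 and Saa1 on 16, which were the treated arrays. Beta-actin's 3' to 5' signal ratio was 1.12 to 2.21 on treated arrays and 1.26 to 2.87 on control arrays. At day 3 it was 1.37 to 1.69 in treated F1 against 2.07 to 2.15 in controls, and 1.84 to 2.01 against 2.15 to 2.87 in DBA. At day 18 it was 1.12 to 1.22 against 1.29 to 2.29 in BALB/c and 1.16 to 1.23 against 1.26 to 1.35 in DBA. Treated arrays were thus lower in these pairs, while BALB/c at day 3 overlapped (1.63 to 2.21 against 2.10 to 2.60). The part of this ratio in the changes was not tested. BALB/c control replicate 2 stood apart, with a highest correlation of 0.858 to any other array. Its mean log2 signal of pancreatic acinar markers was 16.83, where the next highest array, BALB/c day 18 replicate 4, had 14.03. Other arrays of that code series were high as well, with 12.57 and 11.56 on BALB/c day 18 replicates 2 and 3. BALB/c control replicates 3 and 4 had 10.41 and 10.83. Outside that series the highest array had 8.88, so pancreatic signal was present on most arrays of the BALB/c day 18 response. DBA day 18 replicate 2 stood apart in its neutrophil and adipocyte markers, as given beside Lcn2 and Orm1. Xist was high on all 3 F1 treated arrays (12294 to 16808) and low on all 3 F1 controls (55 to 107.1), so treatment and sex cannot be told apart in F1. In the other 4 responses the treated and control groups had equal numbers of arrays with high Xist. All 11 mesothelial markers, the covering cells of mesentery, were above 103.7 on all 32 arrays. In the 5 responses, 1 to 5 of 11 mesothelial, 0 of 9 pancreatic, 0 to 3 of 8 intestinal epithelial, 0 to 1 of 8 endothelial, 1 to 5 of 9 fibroblast, 3 to 6 of 8 B and plasma cell and 2 to 6 of 8 T and NK cell markers rose, and 2 to 7 of the 8 endothelial markers fell. Some mesothelial, fibroblast and intestinal epithelial markers fell as well and are not counted here. In F1 at day 3 these were Gpm6a (-0.94), Dpt (-0.49), Vil1 (-2.23) and Lgals4 (-1.46). Over all genes 16.4% to 22.4% rose and 13.4% to 25% fell in the 5 responses, and rises of 0 or 1 marker are no higher a share than that. In whole tissue, fewer cells of a type and less RNA per cell cannot be told apart.

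The set divided into members that rose and members that fell. Saa1, Saa3, Lcn2 and Ptx3 rose in all 5 responses, by 1.55 to 5.57 on the log2 scale, Hp rose in 4, Orm1 fell in 4 and Orm2 fell in 1. At day 3, BALB/c had 5 members that rose and 1 that fell, where 18.3% of all genes rose and 17.2% fell. In F1 4 rose and 1 fell, where 18.6% and 18% of all genes did, and in DBA 5 rose and 0 fell, where 16.4% and 13.4% did (in DBA, Orm1 alone was lower at an unadjusted p under 0.05, and it was called in a separate fit of that comparison). At day 18, 5 rose and 1 fell in BALB/c, against 21.7% and 22.2% of all genes, and 5 rose and 2 fell in DBA, against 22.4% and 25%. Treated and control arrays did not overlap for 7, 5 and 6 of the 7 members in BALB/c, F1 and DBA at day 3, and for 6 and 7 in BALB/c and DBA at day 18. Over all genes this held for 54.3%, 51.9%, 51.7%, 32.9% and 61.6%. The median change of the 7 members was 3.07, 2.49 and 2.93 in BALB/c, F1 and DBA at day 3 and 1.55 and 1.79 in BALB/c and DBA at day 18, where the median of all genes lay between -0.04 and 0.00. No member rose in 1 response and fell in another.

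**Figure D1:**
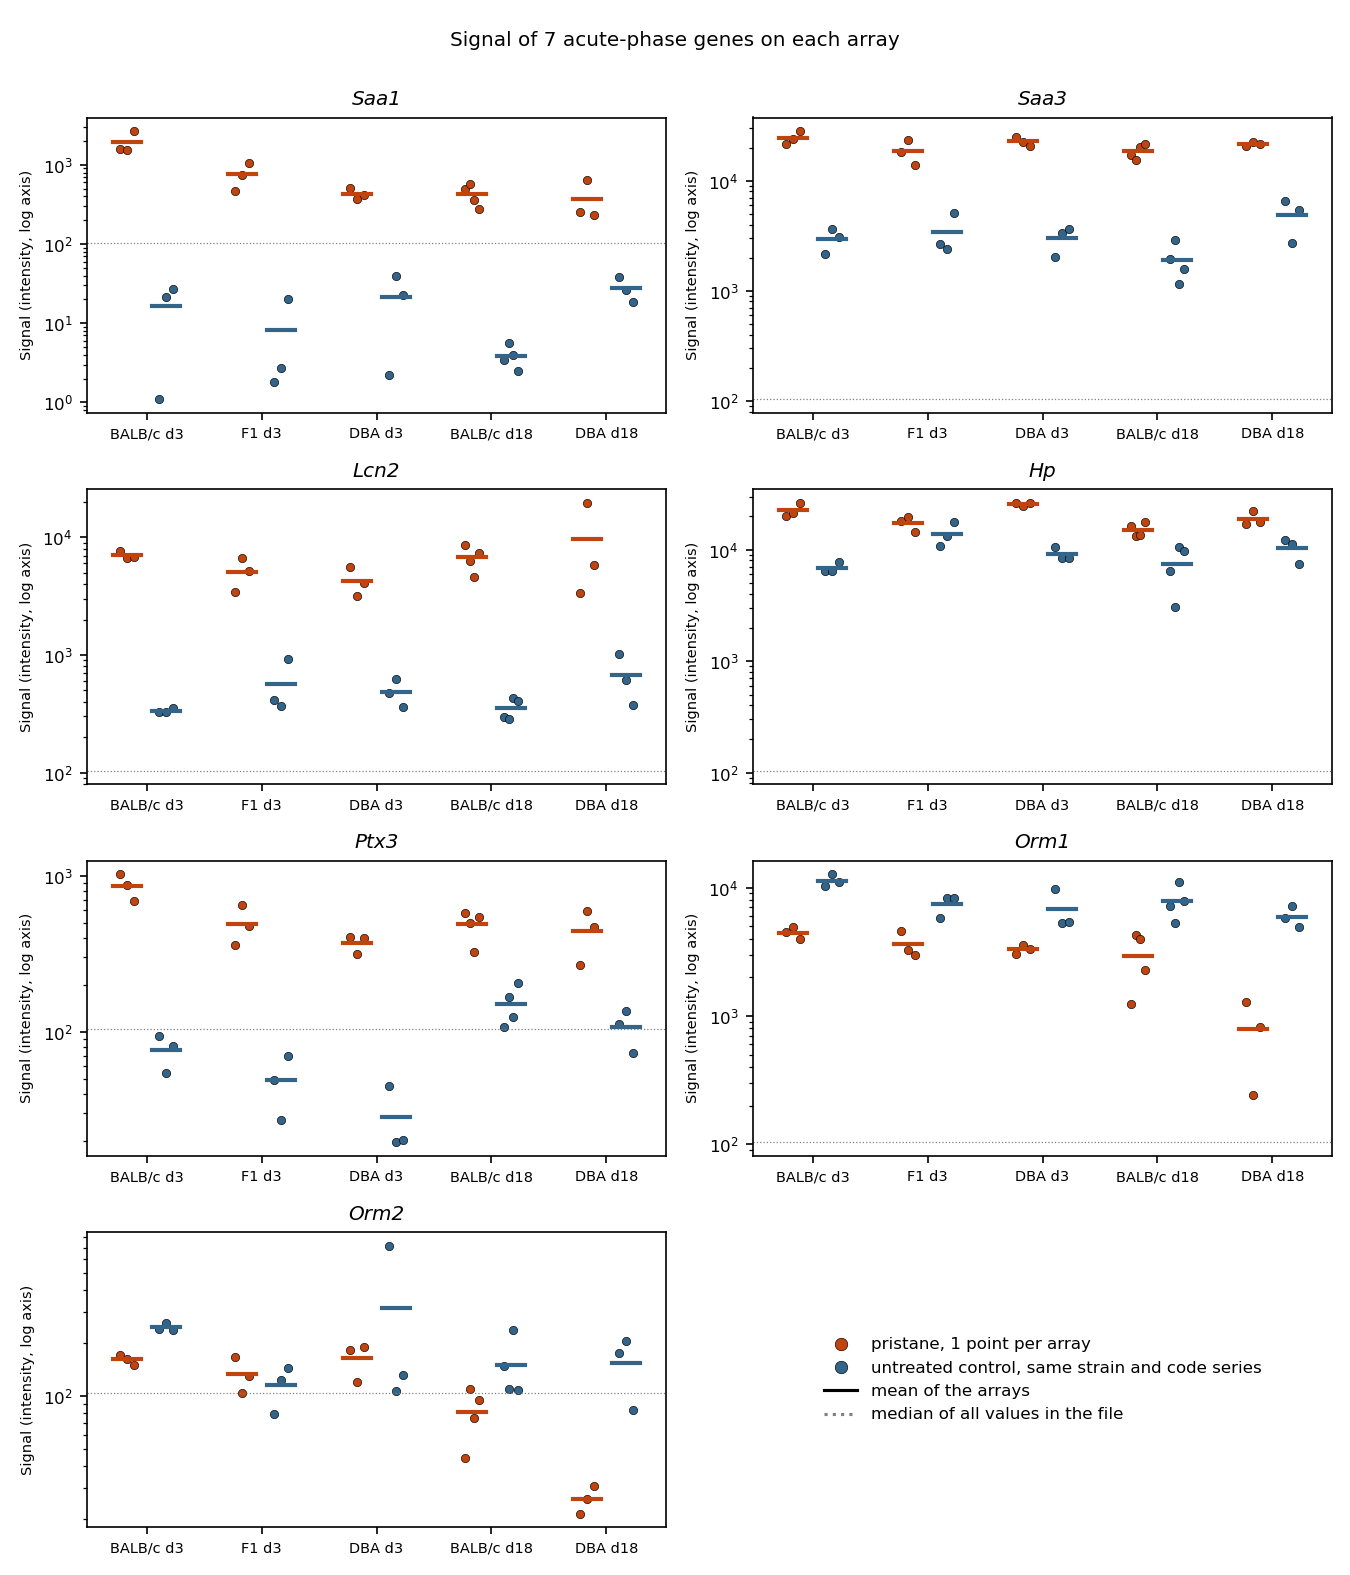
Signal of each of the 7 genes on each of the 32 arrays (log axis, intensity, and the range of the axis differs between genes), with pristane-treated arrays left of the untreated controls of the same strain and code series; bars are means and the dotted line is the median of all values, 103.7. Saa1, Saa3, Lcn2 and Ptx3 separate in all 5 pairs, Hp overlaps in F1, Orm1 is lower on every treated array than on its controls, and Orm2 reaches its lowest signals, 21.4 to 30.9, in DBA at day 18.

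Promoter sequence was available from RefSeq (GRCm38.p6) for 5 of the 7 genes, Saa1, Saa3, Lcn2, Orm2 and Ptx3. The 250 bases before the transcript start are shown for 2 members that rose and for the 1 falling member with an entry, because genes that moved in opposite directions shared the letters of a C/EBP motif there. Capitals mark matches on either strand to the C/EBP letters TTGCNNAA or the NF-kB letters GGG and CC with any 5 bases between them, and each sequence runs 5′ to 3′ on the gene's own strand.
Saa3 (chr7:46715677-46715926, minus strand): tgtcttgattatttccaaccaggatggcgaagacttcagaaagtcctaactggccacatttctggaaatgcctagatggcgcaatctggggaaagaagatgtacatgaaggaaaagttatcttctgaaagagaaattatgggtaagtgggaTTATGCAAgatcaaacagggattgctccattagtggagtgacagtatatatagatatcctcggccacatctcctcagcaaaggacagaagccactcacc
Lcn2 (chr2:32387740-32387989, minus strand): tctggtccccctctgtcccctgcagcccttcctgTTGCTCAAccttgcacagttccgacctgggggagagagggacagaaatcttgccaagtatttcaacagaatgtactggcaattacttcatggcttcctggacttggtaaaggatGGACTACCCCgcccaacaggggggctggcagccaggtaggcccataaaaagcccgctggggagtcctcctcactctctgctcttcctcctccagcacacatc
Orm2 (chr4:63362199-63362448, plus strand): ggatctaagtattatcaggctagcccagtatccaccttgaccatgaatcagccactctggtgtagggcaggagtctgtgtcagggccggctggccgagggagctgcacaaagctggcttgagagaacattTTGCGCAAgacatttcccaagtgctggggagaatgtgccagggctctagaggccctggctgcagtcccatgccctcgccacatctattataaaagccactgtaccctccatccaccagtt
The C/EBP letters stood in all 5 member windows and in 9.56% of 32851 mouse promoter windows of the same length. The NF-kB letters stood in 2 of 5, those of Lcn2 and Saa1, and in 45.8% of all windows. The STAT letters TTCNNNGAA stood in 0 of 5 and in 7.02% of all, and TATAAA in 1 of 5, that of Orm2, and in 12.4% of all. No match overlapped a match to another motif. The Saa3 window lies inside a longer RefSeq gene model that ends at 46719615. A match is a description of letters and was not tested as a binding site.

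Saa1 rose in all 5 responses and was above 103.7 on all 16 treated arrays and below it on all 16 control arrays. It was read by probe set 1450788_at and lies at chr7:46740497-46743181 (GRCm38.p6), beside Saa2, Saa3 and Saa4. Saa1 signals were 1577, 1525 and 2683 in BALB/c day 3 arrays, against 1.1, 21.6 and 27.3 in BALB/c controls. In F1 at day 3 they were 464, 752 and 1070.4, against 1.8, 2.7 and 20.1 in F1 controls. DBA arrays at day 3 read 504, 370.5 and 412, against 2.2, 39.2 and 22.6 in DBA controls. Every BALB/c day 3 array was higher than every F1 or DBA treated array, and no treated array overlapped its controls. At day 18 Saa1 signals were 499, 569, 363 and 279 in treated BALB/c, against 3.4, 5.7, 4 and 2.5 in BALB/c controls. DBA arrays at day 18 read 253, 641 and 234, against 38.7, 26 and 18.6 in controls. All day 18 arrays again lay above all controls, and replicate 2 was the highest of the DBA arrays.

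The Saa1 rise was 5.57 ± 0.36 on the log2 scale in BALB/c at day 3 (SE; adjusted p = 3.2e-11). It was 4.54 ± 0.36 in F1 and 3.37 ± 0.36 in DBA at day 3, and 3.93 ± 0.32 for BALB/c mice and 2.80 ± 0.36 for DBA mice at day 18, with adjusted p of 6.3e-07 or less. Because every control was below the median of all values, so that Saa1 passed the filter only through treated arrays, the size is set by the offset added before the log and no fold is given. In BALB/c at day 3 it was 7.40 with an offset of 1 and 4.04 with an offset of 103.7, and in DBA at day 3 4.88 and 2.09. Group means on the log2 scale ran from BALB/c day 3 (10.88) through F1 day 3 (9.54), DBA day 3 (8.82) and BALB/c day 18 (8.77) to DBA day 18 (8.50), then to the controls at 4.85 to 5.70. BALB/c day 3 stood clear of F1 day 3, while neighbours from F1 day 3 to DBA day 18 overlapped array by array.

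A second Saa1 probe set, 1419075_s_at, carries a transcript accession that RefSeq gives to Saa2, so signals of these related neighbours may be mixed. Their transcript sequences were not compared. That probe set alone rose by 3.86 for BALB/c, 2.33 in F1 and 1.57 in DBA at day 3, and by 3.36 and 2.47 in BALB/c and DBA at day 18. Upstream of the genes, the Saa1 and Saa2 promoter windows share 94.8% of aligned bases, and those of Saa1 and Saa3 48.9%, which does not bear on probe binding. Saa2, another serum amyloid A of liver, rose by 2.83 ± 0.39 in BALB/c and 1.46 ± 0.39 in F1 at day 3, by 1.06 ± 0.34 for BALB/c mice and 1.60 ± 0.39 for DBA mice at day 18, and had 0.77 ± 0.39 in DBA at day 3 (adjusted p = 0.15). The Saa2 probe set is of the type that can bind related transcripts. It was above 103.7 on 14 of 32 arrays, with the mean of every control group below 103.7. As with Saa1, the sizes of its changes therefore depend on the offset. Saa4, a constitutive serum amyloid A, was above 103.7 on 0 arrays. Of hepatocyte markers, Tat was above 103.7 on 0 of 32 arrays, Apoh and F2 on 1, and Ttr, Ahsg and Cps1 on 2. Apob was above it on 5 arrays, Tdo2 on 6, Apoa1 on 10 and Alb on 21, and Cyp2e1 and Serpina1b on all 32. Of the 6 tested, Tdo2, which degrades tryptophan, rose in BALB/c at day 3 (2.06 ± 0.50) and at day 18 in BALB/c (1.58 ± 0.43) and DBA (4.22 ± 0.50), and no other rose. Of the same 6, Alb and Serpina1b fell in F1 at day 3 (-1.01 ± 0.40 and -1.61 ± 0.34), Alb and Cyp2e1 in BALB/c at day 18 (-1.61 ± 0.35 and -0.87 ± 0.26), and Alb, Serpina1b and Cyp2e1 in DBA at day 18 (-1.36 ± 0.40, -0.90 ± 0.34 and -1.01 ± 0.30). The part of liver cells in the Saa1 rise was not tested.

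Saa3, the serum amyloid A of macrophages and fat cells, was above 103.7 on every control array and rose further in every response. Its probe set was 1450826_a_at and its locus is chr7:46711998-46719615. Saa3 signals were 21443.5, 24098.5 and 28345 in BALB/c day 3 arrays, against 2181, 3618 and 3051.5 in controls. In F1 they were 18094, 23253 and 13989, against 2664, 2401 and 5109 in F1 controls. In DBA at day 3 they were 25154, 22636.5 and 20679.8, against 2008, 3317 and 3667 in DBA controls. No treated array overlapped its controls, and treated arrays of the 3 strains overlapped each other. Day 18 arrays read 17267, 15440.5, 20105 and 21741 in BALB/c, against 1949, 2864, 1156 and 1569 in BALB/c controls. DBA arrays at day 18 read 20539, 22379.6 and 21590.2, against 6542, 2700 and 5466 in their controls. The DBA controls of the day 18 code series included the 2 highest controls of all strains, at 6542 and 5466. Saa3 rose by 3.07 ± 0.31, 2.49 ± 0.31 and 2.96 ± 0.31 on the log2 scale in BALB/c, F1 and DBA at day 3 and by 3.35 ± 0.27 and 2.22 ± 0.31 in BALB/c and DBA at day 18 (adjusted p of 2.1e-06 or less), which are 4.66-fold to 10.2-fold changes. Ordered by mean log2 signal, Saa3 ran from BALB/c day 3 (14.58) through DBA day 3 (14.48), DBA day 18 (14.39), BALB/c day 18 (14.18), F1 day 3 (14.14), DBA controls of the day 18 series (12.17), F1 controls of the day 3 series (11.65), DBA controls of the day 3 series (11.52), BALB/c controls of the day 3 series (11.51) to BALB/c controls of the day 18 series (10.82). Of the 9 neighbouring pairs in that order 8 overlapped, and F1 day 3 stood clear of DBA controls of the day 18 series. Of 12 monocyte and macrophage markers tested, 11, 11, 12, 12 and 12 rose in BALB/c, F1 and DBA at day 3 and in BALB/c and DBA at day 18, with medians of 2.03 to 2.59. They included Msr1, a scavenger receptor, which rose by 3.27 to 4.09, Cd68 and Clec7a. Their summed signal was 70571 to 115115 on treated arrays and 25718 to 41649 on control arrays, none of the 12 was at 0, and their part in the Saa3 rise was not tested.

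Lcn2 rose by 3.07 to 4.28 on the log2 scale, with the widest spread between treated arrays in DBA at day 18. Probe set 1427747_a_at read it, and the gene lies at chr2:32384637-32387739. Lcn2 signals were 7592, 6612 and 6815 in BALB/c day 3 arrays, against 329, 329 and 351 in controls. F1 treated arrays had 3453, 6617 and 5156, against 412, 371 and 923 in F1 controls. DBA day 3 arrays had 5572, 3153 and 4107, against 472, 621.5 and 360.5 in DBA controls. Treated arrays were all above controls, and BALB/c replicates lay closest together. BALB/c day 18 arrays had 8685, 6299, 4626 and 7358, against 298, 284.5, 430.4 and 406 in controls. DBA day 18 arrays had 3393, 19744 and 5867, against 1027, 617 and 375 in controls. Replicate 2 of DBA day 18 was the highest of all 32 arrays, and replicate 1 of its controls was the highest control. The rises were 4.28 ± 0.43 for BALB/c, 3.17 ± 0.43 for F1 and 3.07 ± 0.43 in DBA at day 3 and 4.14 ± 0.37 for BALB/c mice and 3.51 ± 0.43 for DBA mice at day 18 (adjusted p of 5.7e-06 or less). Without DBA day 18 replicate 2 the DBA day 18 rise was 2.80 (adjusted p = 1.6e-06). Ordered by mean log2 signal, Lcn2 ran from DBA day 18 (12.84) through BALB/c day 3 (12.78), BALB/c day 18 (12.69), F1 day 3 (12.27), DBA day 3 (12.03), DBA controls of the day 18 series (9.34), F1 controls of the day 3 series (9.10), DBA controls of the day 3 series (8.96), BALB/c controls of the day 18 series (8.55) to BALB/c controls of the day 3 series (8.50). Of the 9 neighbouring pairs in that order 8 overlapped, and DBA day 3 stood clear of DBA controls of the day 18 series.

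Neutrophils store lipocalin 2 in their granules, and part of the neutrophil marker list rose in each of the 5 responses. Of 17 tested, 12, 10 and 8 rose in BALB/c, F1 and DBA at day 3 and 15 and 16 in BALB/c and DBA at day 18, with none that fell and medians of 1.98 to 3.07. S100a8 and S100a9, which encode the calprotectin subunits, rose by 6.04 and 6.08 in BALB/c at day 3, and Chil3, a chitinase-like gene shared with macrophages, by 6.56. The summed signal of all 17 was 25424 to 45294 in BALB/c day 3, 12085 to 32576 in F1 day 3 and 13514 to 24106 in DBA day 3, and 33142 to 61107 and 25766 to 141814 in BALB/c and DBA day 18, against 1146 to 10931 on control arrays. DBA day 18 replicate 2 held the highest sum, 141814, against 25766 and 41974 on the other 2 arrays of its group, and DBA control replicate 1 held the highest control sum, 10931. The granule genes Camp, Ltf and Elane were each above 103.7 on 13 arrays, and none of the 17 was at 0. Camp, Ltf and Elane did not pass limma's test in F1 at day 3 (2.03, 1.98 and 0.97, adjusted p = 0.087, 0.084 and 0.42). Nor did they in DBA at day 3 (1.14, 1.41 and 0.84, adjusted p = 0.39, 0.25 and 0.52), while Lcn2 rose in both. The part of these cells in the Lcn2 rise was not tested.

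**Figure D2:**
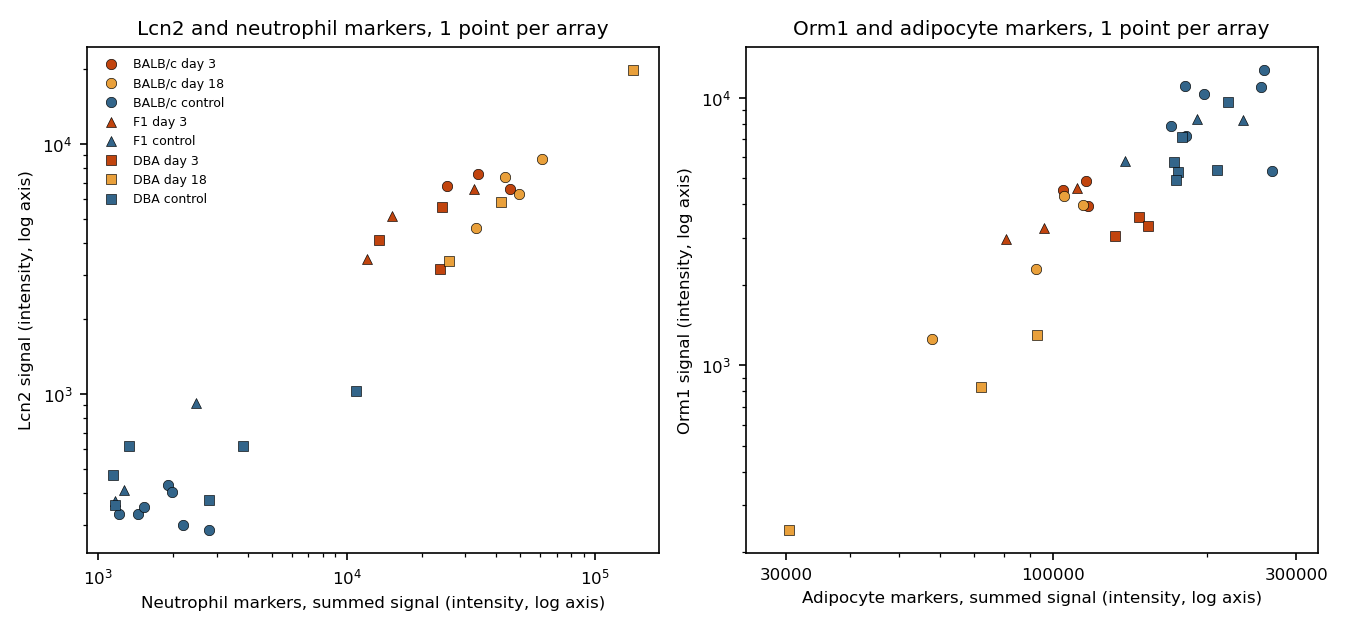
Lcn2 signal against the summed signal of 17 neutrophil markers (left) and Orm1 signal against the summed signal of 13 adipocyte markers (right), 1 point per array on log axes; shape gives the strain and colour the treatment. DBA day 18 replicate 2 is the point at 141814 and 19744 on the left and at 30405 and 241 on the right, the extreme of both plots.

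Ptx3 rose in all 5 responses, by 2.82 to 3.14 at day 3 and by 1.55 and 1.79 at day 18 on the log2 scale. It was read by 1418666_at and lies at chr3:66219887-66225806; a second probe set, 1456903_at, was above 103.7 on 1 array and was not used. Ptx3 signals were 1024, 878 and 688 in BALB/c day 3 arrays, against 93.3, 54.4 and 80.9 in controls. In treated F1 they were 359, 648 and 475, against 49.3, 27.2 and 70.2 in F1 controls. DBA arrays at day 3 had 403, 314 and 401, against 44.9, 19.5 and 20.1 in DBA controls. The BALB/c treated arrays were all higher than the F1 and DBA treated arrays, and no group overlapped its controls. BALB/c arrays at day 18 had 579.9, 499, 326 and 546, against 107, 168, 124 and 206 in controls. DBA arrays at day 18 had 268, 593 and 472, against 113, 136 and 73.3 in controls. All but 1 of the controls of the 2 day 18 code series were higher than every control of the day 3 series, while the treated arrays of both days overlapped. The rises were 3.14 ± 0.29, 2.82 ± 0.29 and 2.93 ± 0.29 in BALB/c, F1 and DBA at day 3 and 1.55 ± 0.25 and 1.79 ± 0.29 in BALB/c and DBA at day 18 (adjusted p of 1.8e-05 or less). Ordered by mean log2 signal, Ptx3 ran from BALB/c day 3 (9.78) through F1 day 3 (8.98), BALB/c day 18 (8.97), DBA day 18 (8.81), DBA day 3 (8.63), BALB/c controls of the day 18 series (7.42), DBA controls of the day 18 series (7.02), BALB/c controls of the day 3 series (6.64), F1 controls of the day 3 series (6.16) to DBA controls of the day 3 series (5.70). Of the 9 neighbouring pairs in that order 7 overlapped, and BALB/c day 3 stood clear of F1 day 3 and DBA day 3 stood clear of BALB/c controls of the day 18 series. As with Saa1, the dim controls make the size depend on the offset, and the DBA day 3 rise was 3.78 with an offset of 1 and 1.85 with one of 103.7.

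Hp rose by 1.86-fold to 3.26-fold in BALB/c and DBA and did not pass the test in F1. It was read by 1448881_at and lies at chr8:109575128-109579172. Hp signals were 20029.6, 21232 and 26297 in BALB/c day 3 arrays, against 6475, 6460.3 and 7675 in controls. Treated F1 arrays had 17990.5, 19726 and 14375, against 10698, 13145 and 17904 in F1 controls. DBA day 3 arrays had 26385.5, 24652.5 and 26504, against 10492, 8436 and 8387 in DBA controls. The F1 groups overlapped, with F1 controls higher than any BALB/c or DBA control of the same series, and the other 2 pairs did not overlap. BALB/c day 18 arrays had 16216, 13227, 13582 and 17572, against 6452, 3055, 10479 and 9819 in controls. DBA day 18 arrays had 17031, 22111.5 and 17637.5, against 12179, 11325 and 7456 in controls. Both day 18 pairs were separate, and BALB/c control replicate 2 was the lowest of the 4 controls of its series. The log2 changes were 1.70 ± 0.29 (3.26-fold) for BALB/c and 1.51 ± 0.29 in DBA at day 3, 1.16 ± 0.25 in BALB/c and 0.90 ± 0.29 (1.86-fold; adjusted p = 0.012) in DBA at day 18, and 0.34 ± 0.29 in F1 (95% interval -0.25 to 0.93; adjusted p = 0.38). With log2 Xist as a covariate the F1 change was 0.89 (adjusted p = 0.019). The Xist slope of that fit came mainly from other groups, because Xist and treatment go together in F1. That fit therefore cannot separate sex from treatment in F1. The DBA day 18 call was lost without DBA day 18 replicate 2 (0.78, adjusted p = 0.058) and on leaving out DBA control replicate 3 (0.68, adjusted p = 0.086). Without BALB/c control replicate 2 the BALB/c day 18 rise was 0.78 (adjusted p = 9.3e-04). Ordered by mean log2 signal, Hp ran from DBA day 3 (14.66) through BALB/c day 3 (14.45), DBA day 18 (14.20), F1 day 3 (14.07), BALB/c day 18 (13.88), F1 controls of the day 3 series (13.73), DBA controls of the day 18 series (13.30), DBA controls of the day 3 series (13.15), BALB/c controls of the day 3 series (12.75) to BALB/c controls of the day 18 series (12.72). Of the 9 neighbouring pairs in that order 8 overlapped, and DBA controls of the day 3 series stood clear of BALB/c controls of the day 3 series.

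Orm1 moved opposite to the 5 genes that rose, with lower signals on treated arrays in every strain and at both days. It was read by 1451054_at, its only probe set, and lies at chr4:63344556-63348163, in a cluster with Orm3 and Orm2. Orm1 signals were 4511, 4900.4 and 3950.4 in BALB/c day 3 arrays, against 10316, 12722 and 10988 in controls. In treated F1 they were 4596, 3258 and 2968, against 5820.4, 8332 and 8275 in F1 controls. In DBA at day 3 they were 3049, 3578 and 3317, against 9694, 5276 and 5398 in DBA controls. Every treated array was below every control of its strain. BALB/c day 18 arrays read 1250.2, 4301, 3972 and 2295, against 7194, 5345, 11051 and 7866 in controls. DBA day 18 arrays read 1296, 241 and 826, against 5764, 7130.3 and 4941 in controls. The groups were again separate, and the 3 DBA day 18 arrays held 3 of the 4 lowest signals of all 32.

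Orm1 fell by 1.34 on the log2 scale in BALB/c at day 3 (SE 0.41; adjusted p = 0.012), by 1.51 in BALB/c at day 18 (SE 0.36; adjusted p = 0.0012) and by 3.14 in DBA at day 18 (SE 0.41; 95% interval of the change -3.99 to -2.29; adjusted p = 7.6e-07), the 14th largest fall of all genes. In DBA at day 3 the change was -0.97 ± 0.41 with an adjusted p of 0.08. In F1 it was -1.05 ± 0.41 with an adjusted p of 0.048. The F1 call was lost without F1 day 3 replicate 2 (-0.99) or 3 (-0.93), and without F1 control replicate 2 (-0.97) or 3 (-0.97). It was also lost with Xist as a covariate (-0.79, adjusted p = 0.24), a fit that cannot separate sex from treatment in F1. Without DBA day 18 replicate 2, the lowest array, the DBA day 18 change was -2.48 (adjusted p = 7.3e-06). Group means on the log2 scale ran from BALB/c controls of the day 3 series (13.47) through the other controls (12.53 to 12.90), BALB/c day 3 (12.12), F1 day 3 (11.80), DBA day 3 (11.70) and BALB/c day 18 (11.38) to DBA day 18 (9.39). The lowest control group and BALB/c day 3 did not overlap, and the other 8 neighbouring pairs did.

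Orosomucoid is made in fat as well as in liver, and some or all adipocyte markers fell in each of the 5 responses. Of 13 adipocyte markers tested, 11, 9 and 3 fell in BALB/c, F1 and DBA at day 3 and 13 and 12 in BALB/c and DBA at day 18, with none that rose. Over all genes 17.2%, 18%, 13.4%, 22.2% and 25% fell, in the same order. Their median log2 change was -1.30, -1.11 and -0.70 at day 3 and -1.26 and -2.17 at day 18. Their summed signal was 30405 to 153477 on treated arrays and 138375 to 268356 on control arrays, with 30405 on DBA day 18 replicate 2 and 92919 and 72399 on replicates 1 and 3 of that group. DBA day 18 replicate 2 had both the lowest Orm1 and the lowest sum of all 32 arrays, while some other arrays did not keep 1 order. DBA day 3 arrays had lower Orm1 than BALB/c day 3 arrays and higher sums (132029 to 153477, against 104494 to 116934). BALB/c control replicate 2, the array set apart by its pancreatic markers, had the lowest Orm1 of the 7 BALB/c controls and the highest sum. None of the 13 was at 0, and 11 were above 103.7 on all 32 arrays. In DBA at day 18 the fat hormone gene Lep fell by 3.73, the glycerol channel gene Aqp7 by 3.06 and the lipase gene Lipe by 2.54, beside 3.14 for Orm1. These were the largest falls of the list. In the same response the markers Adipoq and Fabp4 had -0.98 and -0.69, of which Fabp4 did not pass the test. In DBA at day 3 Adipoq and Fabp4 had 0.04 and 0.07, and neither passed. The part of fat cells in the Orm1 fall was not tested.

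Orm2 passed the test in 1 of the 5 responses, where it fell in DBA at day 18, and it was below 103.7 on 8 of the 32 arrays. Its only probe set was 1420438_at, and its locus is chr4:63362449-63365877. Orm2 signals were 172, 163 and 151 in BALB/c day 3 arrays, against 241, 262 and 238 in controls. In treated F1 they were 167, 104 and 130.5, against 78.8, 124 and 145 in F1 controls. DBA arrays of day 3 had 183, 120.4 and 189, against 717, 108 and 132.5 in DBA controls. BALB/c arrays did not overlap, F1 arrays did, and DBA arrays did with 1 control far above the rest. At day 18 Orm2 signals were 44.4, 109.7, 75.3 and 94.6 in treated BALB/c, against 148, 110.1, 237 and 108 in controls. In DBA they were 21.4, 25.9 and 30.9, against 177, 205 and 83.6 in controls. The 3 DBA day 18 arrays were the lowest of all 32. The log2 changes were -0.54 ± 0.41 in BALB/c (adjusted p = 0.34), 0.18 ± 0.41 in F1 (adjusted p = 0.76) and -0.42 ± 0.41 in DBA at day 3 (adjusted p = 0.49), and -0.72 ± 0.36 in BALB/c (adjusted p = 0.11) and -1.75 ± 0.41 in DBA at day 18 (adjusted p = 9.5e-04). Without DBA control replicate 4, the array at 717, the DBA day 3 change was 0.37. Ordered by mean log2 signal, Orm2 ran from BALB/c controls of the day 3 series (8.08) through DBA controls of the day 3 series (7.96), BALB/c day 3 (7.55), DBA day 3 (7.54), DBA controls of the day 18 series (7.42), BALB/c controls of the day 18 series (7.40), F1 day 3 (7.29), F1 controls of the day 3 series (7.11), BALB/c day 18 (6.68) to DBA day 18 (5.67). Of the 9 neighbouring pairs in that order 8 overlapped, and BALB/c day 18 stood clear of DBA day 18. With an offset of 1 the DBA day 18 change was -2.45, and with one of 103.7 it was -0.97.

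Orm3, the third orosomucoid gene, at chr4:63356069-63359506, had changes of -1.11 ± 0.37, -0.71 ± 0.37 and -0.28 ± 0.37 in BALB/c, F1 and DBA at day 3 and -1.07 ± 0.32 and -2.15 ± 0.37 in BALB/c and DBA at day 18. It fell in BALB/c at both days (adjusted p = 0.022 and 0.0091) and in DBA at day 18 (adjusted p = 3.3e-05). The Orm2 and Orm3 promoter windows share 85.5% of aligned bases. Transcript sequences were not compared, and cross-hybridisation between orosomucoid probe sets was not tested. No orosomucoid gene rose in any of the 5 responses.

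**Figure D3:**
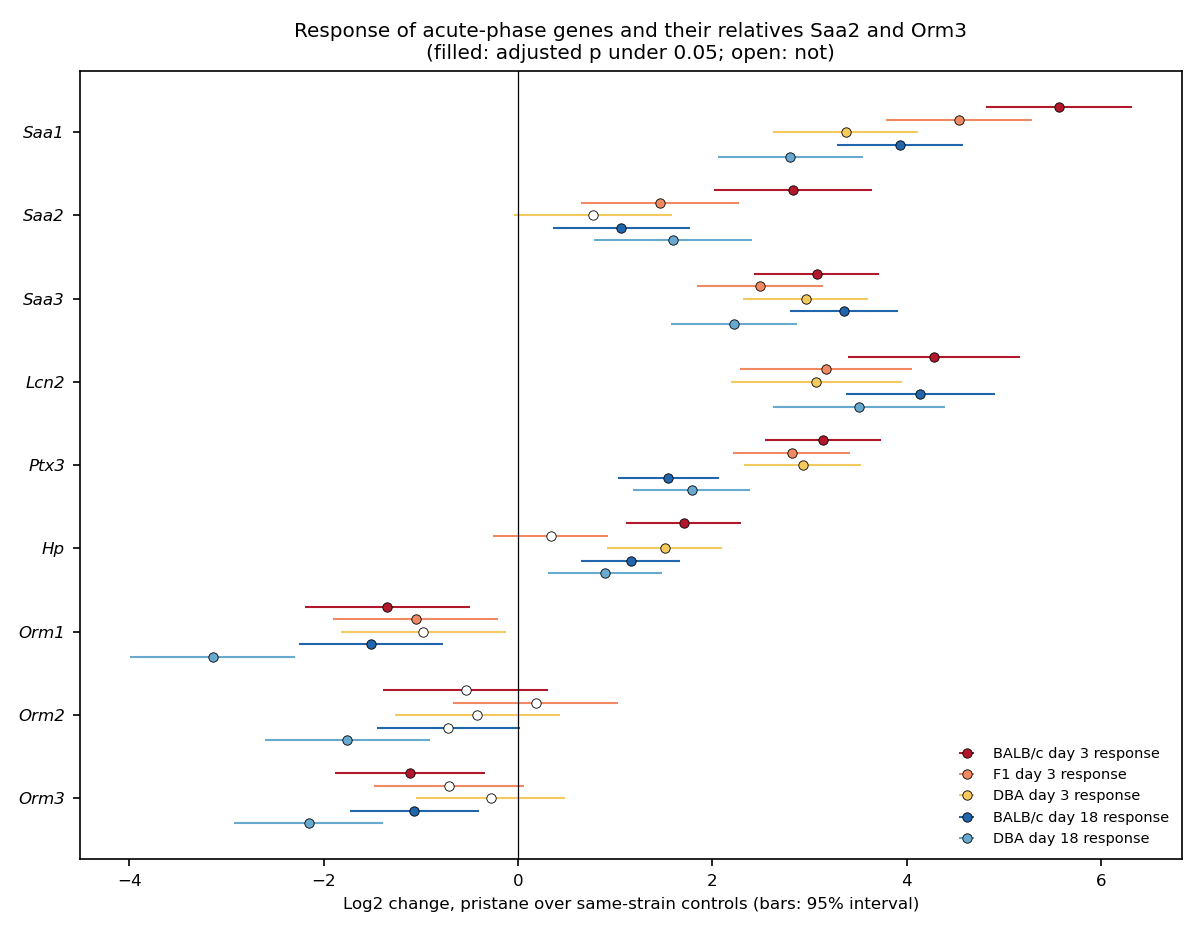
Log2 change of the 7 genes and of their relatives Saa2 and Orm3 in the 5 responses, pristane over untreated arrays of the same strain and code series, with 95% intervals; filled points have an adjusted p under 0.05. Saa, Lcn2, Ptx3 and Hp points lie right of 0 and the orosomucoid points lie left of it, except Orm2 in F1 at 0.18.

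Differences between the strains' responses were tested directly. The Saa1 rise at day 3 was larger in BALB/c than in DBA by 2.20 ± 0.52 log2 units (adjusted p = 0.0499), the only 1 of the 7 members called in that contrast, in which 0.492% of all genes were called. That call lies at the threshold, and its size rests on controls below the median of all values: with an offset of 1 the difference was 2.52 (adjusted p = 0.47). The call was also lost when any 1 of the 3 BALB/c day 3 arrays, their 3 controls or the 3 DBA day 3 arrays, or DBA control replicate 5 or 6, was left out, with differences of 1.89 to 2.54 over the 12 arrays left out in turn, all in the same direction. Saa2, which was also dim in controls, differed the same way by 2.06 ± 0.56 and missed the threshold (adjusted p = 0.1). Its probe set is of the type that can bind related transcripts, so this value is not an independent reading beside Saa1. For Saa3 the difference was 0.11 ± 0.44, with a 95% interval of -0.80 to 1.03, and for Lcn2 1.21 ± 0.61 (adjusted p = 0.53). The response of F1 minus that of BALB/c was -1.03 ± 0.52 for Saa1 (adjusted p = 0.59), -1.11 ± 0.61 for Lcn2 (adjusted p = 0.66) and -1.36 ± 0.41 for Hp (adjusted p = 0.18), and 0 of 7 were called (1 at an unadjusted p under 0.05), where 0.238% of all genes were. F1 minus DBA was 1.17 ± 0.52 for Saa1 (adjusted p = 0.34) and -1.17 ± 0.41 for Hp (adjusted p = 0.18), with 0 of 7 called by limma, 2 at an unadjusted p under 0.05, and 2.01% of all genes called. The F1 control arrays enter both contrasts.

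At day 18 the BALB/c response minus the DBA response was 1.12 ± 0.48 for Saa1, 1.13 ± 0.42 for Saa3, 1.63 ± 0.55 for Orm1 and 1.04 ± 0.55 for Orm2 (adjusted p = 0.25, 0.18, 0.14 and 0.34). In that contrast 0 of 7 members were called, 3 had an unadjusted p under 0.05, and 1.01% of all genes were called. Within DBA, the Orm1 change at day 18 was 2.17 log2 units further down than at day 3 (SE 0.59; 95% interval of the difference -3.37 to -0.97; adjusted p = 0.033), 1 of 7 members called where 4.18% of all genes were. The difference ran from -2.66 to -1.50 over the 12 arrays left out in turn. The call was lost without DBA day 18 replicate 2 (-1.50) or 3 (-2.34), without DBA day 3 replicate 2 (-2.11) or 3 (-2.17), and without DBA control replicate 1, 2, 5 or 6 (-2.18, -2.03, -2.02 and -2.03). Orm2 differed by -1.34 ± 0.58 (adjusted p = 0.21) and Ptx3 by -1.14 ± 0.41 (adjusted p = 0.12) in the same contrast. Orm3, which was chosen for description as a relative, differed by -1.87 ± 0.53 (adjusted p = 0.042). For Ptx3 the treated DBA mean log2 signal was 8.81 at day 18 and 8.63 at day 3, and that of the controls 7.02 and 5.70. Its treated level was thus not lower at day 18, and the smaller response went with higher controls. Within BALB/c, day 18 minus day 3 was -1.64 ± 0.48 for Saa1 (adjusted p = 0.13) and -1.59 ± 0.39 for Ptx3 (adjusted p = 0.072), with 0 of 7 called, 2 at an unadjusted p under 0.05, and 0.361% of all genes called. The 2 days come from different code series, each with its own controls, so day and code series cannot be told apart in these differences, nor can strain and code series in the BALB/c minus DBA difference at day 18.

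Among untreated arrays of the day 3 series, 1 member was called between strains. Ptx3 was lower in DBA than in BALB/c controls, by 0.94 on the log2 scale (SE 0.29; adjusted p = 0.0457), the 1 member called where 7.68% of all genes were. All 6 of these controls were below 103.7, and the difference was -1.48 with an offset of 1 and -0.45 (adjusted p = 0.25) with one of 103.7, so its size is not settled. The call was also lost without BALB/c control replicate 5 (-0.82) or 7 (-0.90) or DBA control replicate 5 (-0.83) or 6 (-0.84). Arrays of the 2 strains did not overlap for 4 of the 7 members, Lcn2, Hp, Orm1 and Ptx3, where 30.2% of all genes did not. F1 controls had Hp 0.99 ± 0.29 above BALB/c controls (adjusted p = 0.063) and Orm2 at -0.98 ± 0.41 relative to them (adjusted p = 0.26), with 0 of 7 called, 2 at an unadjusted p under 0.05, and 2.67% of all genes called. Orm3 was lower than in BALB/c controls both in DBA controls (-1.56 ± 0.37, adjusted p = 0.0084) and in F1 controls (-1.93 ± 0.37, adjusted p = 0.0034). F1 minus DBA controls was -0.85 ± 0.41 for Orm2 (adjusted p = 0.45), with 0 of 7 called, 1 at an unadjusted p under 0.05, and 1.26% of all genes called. The F1 controls differed from the other controls of their series in Xist as well.

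The cytokine genes that drive the acute-phase response were measured in the same tissue. Of 7 tested, 4, 5, 5, 5 and 5 rose in BALB/c, F1 and DBA at day 3 and in BALB/c and DBA at day 18, with a median log2 change of 1.88 to 2.70. Il6 rose in all 5, by 3.74 ± 0.39, 2.66 ± 0.39, 2.65 ± 0.39, 4.53 ± 0.34 and 4.19 ± 0.39 in that order, and Il1b by 3.78 to 4.57. Tnf rose by 1.91 to 2.70 and Osm, an interleukin-6 family cytokine, by 1.08 to 2.07. Il1a rose in 4 responses and had 0.35 ± 0.29 in BALB/c at day 3 (adjusted p = 0.38). Ctf1, which encodes cardiotrophin-1 of the same family, fell in all 5, by 0.71 to 0.85. Among 14 receptors and signal carriers tested, 9, 8, 10, 10 and 9 rose in the 5 responses and 0, 0, 0, 1 and 0 fell (Irak1, in BALB/c at day 18), and the list medians were 0.50 to 0.86. The rises were led by Il1r1, the interleukin-1 receptor (1.62 to 2.79), Tnfrsf1b, a tumour necrosis factor receptor (1.33 to 2.20), Osmr, the oncostatin M receptor (0.83 to 1.78), and the adaptor gene Myd88 (0.69 to 1.49).

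Of 18 transcription factor and feedback genes tested, 9, 8, 9, 10 and 11 rose and 5, 5, 3, 2 and 2 fell in the 5 responses, in the same order, with medians of 0.42 to 1.01. Socs3, the feedback inhibitor induced by STAT3, rose by 2.33 to 3.25, Bcl3, a nuclear partner of NF-kB, by 1.90 to 3.09, and Tnfaip3, which ends NF-kB signalling, by 1.19 to 2.53. Cebpd, a C/EBP factor of the acute phase, rose in BALB/c at day 3 (1.66 ± 0.25) and at day 18 in BALB/c (1.95 ± 0.21) and DBA (1.59 ± 0.25). In F1 and DBA at day 3 it had 0.50 ± 0.25 and 0.48 ± 0.25, which did not pass the test. Cebpa, the C/EBP factor of mature fat and liver cells, fell in 4 responses, by 0.86 to 1.52, and had -0.42 ± 0.27 in DBA at day 3. Zbtb16, a zinc finger gene induced by glucocorticoids, fell in all 5, by 1.22 to 1.84. At day 3 Tsc22d3, a glucocorticoid-induced gene, fell in all 3 strains (by 0.90 to 1.13), Per1 in BALB/c and F1, Fkbp5 in F1 and DBA, and the glucocorticoid receptor gene Nr3c1 in BALB/c, and none of these 4 passed the test at day 18.

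Beyond the 7, 13 of 25 listed positive acute-phase genes were bright enough to be tested, and 10, 7, 5, 9 and 8 of them rose in the 5 responses, with medians of 2.17, 1.01, 1.00, 1.06 and 1.35. Il1rn, the interleukin-1 receptor antagonist, rose by 4.44 to 5.74, Cd14, an endotoxin co-receptor, by 2.37 to 3.30, and Cfb, complement factor B, by 2.43 to 3.09, each in all 5. Itih4, an inter-alpha-trypsin inhibitor chain, rose in BALB/c at day 3 (3.52 ± 0.86) and passed the test in no other response. In DBA at day 3 the remaining 2 of 5 were Lbp, which carries endotoxin (1.00), and Serpina3n, a protease inhibitor (1.55). Orm3 was the 1 gene of this list that fell. Of 3 negative acute-phase genes tested, Rbp4, the retinol carrier, fell in all 5 responses, by 0.99 to 2.01. Alb, albumin, fell in F1 at day 3 (-1.01 ± 0.40) and at day 18 in BALB/c (-1.61 ± 0.35) and DBA (-1.36 ± 0.40), and Apoa1 passed the test in none. Among 12 genes for receptors and clearance of acute-phase proteins, 9, 8, 8, 8 and 8 rose and 1, 1, 0, 2 and 3 fell; those that fell were Cd36, Scarb1 and, in DBA at day 18, Slc22a17, a lipocalin 2 receptor (-0.49 ± 0.19), and the list medians were 0.77 to 1.31. Fpr2, a receptor for serum amyloid A, rose by 3.54 to 4.35, Fcgr1, a pentraxin-binding Fc receptor, by 2.08 to 4.99, Hmox1, which degrades haem, by 1.93 to 2.93, and Tlr2, a receptor for microbial lipoproteins, by 1.70 to 2.91.

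**Figure D4:**
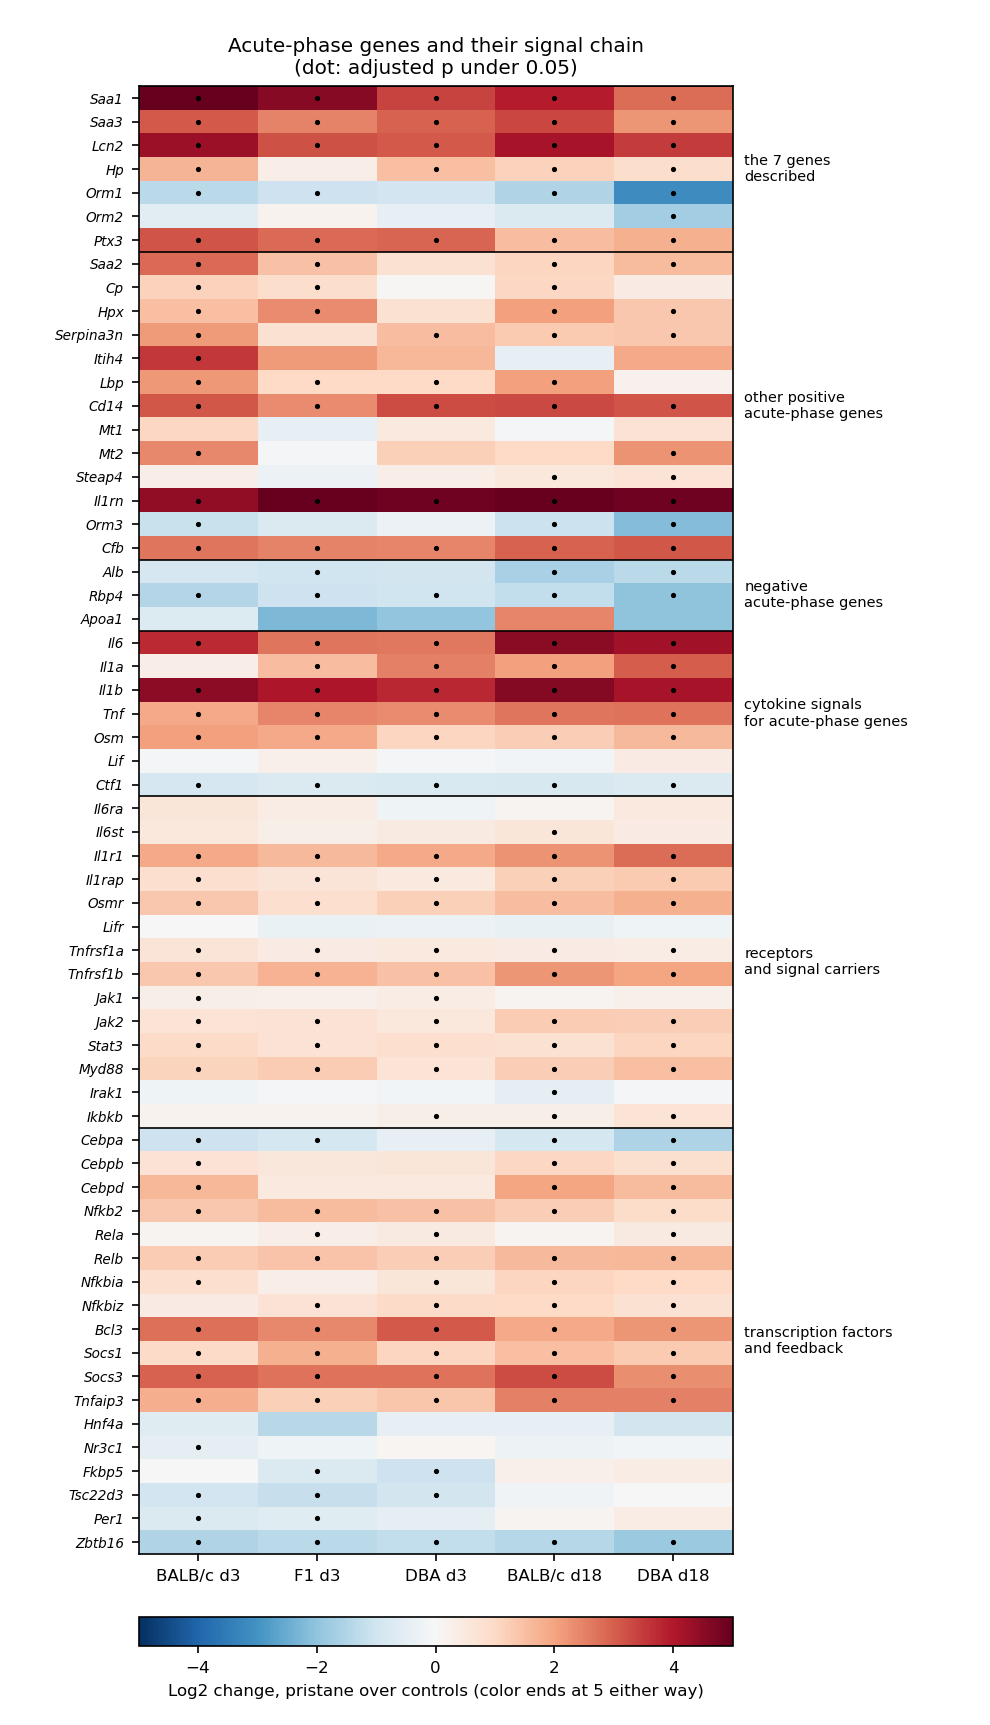
Log2 change of the 7 genes and of listed acute-phase, cytokine, receptor and transcription factor genes (rows) in the 5 responses (columns), pristane over untreated arrays, with red for higher and blue for lower; a dot marks an adjusted p under 0.05. Il1rn, at 5.74 in BALB/c at day 18, and Saa1, at 5.57 in BALB/c at day 3, are among the darkest red, and Orm1 in DBA at day 18, at -3.14, is the darkest blue of the called genes.

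The genes whose signal followed each member most closely over the 32 arrays were found by Pearson correlation of log2 signals, given as a description because treated and control arrays form separate clusters. For Saa1, Saa3 and Lcn2 the first was the neutrophil chemokine gene Cxcl5 (r = 0.948, 0.955 and 0.979). Dok2 and D17H6S56E-5 followed for Saa1, Cxcl2 and Arg1 for Saa3, and Ifitm1 and Cd14 for Lcn2. For Ptx3 the first was Bcl3 (0.95), then Prr13 and Fcna, and for Hp it was Lox (0.93), which cross-links collagen, then Emp1 and the acute-phase inhibitor gene Serpina3n. For Orm1 it was Chpt1 (0.97), a phosphatidylcholine synthesis gene, then Mtarc1 and Aox1, and for Orm2 Exd1 (0.82), Orm3 (0.79) and Cstf2 (0.78). Among the members, Saa1, Saa3 and Lcn2 correlated at 0.93 to 0.94 with each other, Orm1 and Orm2 at 0.77, and Orm1 with Lcn2 at -0.76.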

How the data were processed

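Mesentery RNA was hybridised to 32 Affymetrix Mouse Genome 430 2.0 arrays of 1 colour. The values are probe set intensities on a linear scale, deposited by the authors, made with GCOS and the MAS5 algorithm per the submitters' processing notes; their versions are not given in the sources used here. Every array has a 2% trimmed mean of 500.0, and 13 values are 0. Per-probe values were not used here, and the number of arrays limits the precision.

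Groups came from the strain, agent and time labels, and replicate numbers follow accession order. Of 45101 probe sets, 34958 carried 1 gene symbol in the platform annotation. Each gene was represented by its brightest single-symbol probe set, kept if above 103.7, the median of all values, on at least 3 arrays. Log2(signal + 24.9), the offset being the 25th percentile, entered limma (version 3.58.1, under R 4.3.3) as 1 mean per group and code series over all 32 arrays, an intensity trend and 22 residual degrees of freedom. Tests were two-sided with Benjamini-Hochberg adjustment over 13016 genes. The authors' own test was an ANOVA run in Partek per the series text, and an ordinary linear model stood in for it as an alternative.

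The 7 genes, the lists of acute-phase, signal and cell type marker genes and the rule for named genes were chosen with earlier results of these data known. Named genes were the 7, up to 4 of each list with the largest change, listed genes where 5 or fewer passed, and the 3 closest in pattern to each. Saa2, Saa4, Camp, Ltf, Elane, Apob and hepatocyte genes below the filter were named after their values were seen. Alternatives changed the offset, filter, normalization, code series term, fit, variance model, probe set or a covariate for Xist or pancreatic markers, 1 at a time, or left out 1 array. The fit was tested on simulated data. Promoter windows are RefSeq's, GRCm38.p6.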

Additional observations from a re-analysis of the deposited data

Results flagged for a closer look

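Hp on BALB/c control replicate 2 read 3055, the lowest of the 7 BALB/c controls pooled over code series, and the next lowest read 6452. On the log2 scale the gap was 0.61 of the range of that group, above the critical value of 0.568 for 7 arrays. This array was the 1 such array among 21 groups of members' values examined, of which chance alone marks about 1 in 20. The same array had the mean log2 pancreatic marker signal of 16.83, and the part of that tissue in its Hp signal was not tested.

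The Saa1 response at day 3 differed between BALB/c and DBA by 2.20 on the log2 scale in the direct test (adjusted p = 0.0499). The Orm1 response in DBA differed between day 18 and day 3 by -2.17 (adjusted p = 0.033).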

How the results depend on the processing

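Of 32 called member results, none turned direction under 16 other settings or the left-out arrays; 646 of 701 recomputed values kept the call and 55 lost it. Of the 66 uncalled results, 42 were not recomputed; of 604 values of the other 24, which are those named in the text, 30 became called and 5 turned direction: Orm2 in F1 without F1 control replicate 1 (-0.0219) and in DBA at day 3 without DBA control replicate 4 (0.37), the Saa3 difference of BALB/c minus DBA at day 3 without BALB/c control replicate 5 (-0.0887) or DBA control replicate 6 (-0.0556), and Ptx3 in DBA day 18 minus day 3 with no code series term (0.18). With each array left out in turn, Orm2 ran from -0.0219 to 0.33 in F1 and -0.88 to 0.37 in DBA at day 3, and that Saa3 difference from -0.0887 to 0.37. The cause was not tested.

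The count of members that fell in F1, 1, was 0 with a floor in place of the offset, an offset of 1, no dim filter, median centring, quantile normalization, dropping the code series term, no variance trend, an ordinary linear model or an Xist term. The count that fell was 2 in BALB/c day 3 with a separate fit, 1 in DBA day 3 with a separate fit or array weights, 2 in BALB/c day 18 with no code series term, and 1 in DBA day 18 with the stricter filter, which leaves out Orm2. For BALB/c minus DBA at day 3 the count, 1, was 0 with an offset of 1, no filter, the stricter filter, quantile normalization, median centring, an ordinary linear model or an Xist term, and 2 with a separate fit. For DBA day 18 minus day 3 the count that fell, 1, was 0 with median centring, a separate fit or an ordinary linear model, 2 with no code series term and 4 with array weights. For DBA minus BALB/c controls it was 0 with an offset of 103.7, either filter, median centring, a separate fit, no code series term or an ordinary linear model, and 2 with array weights. Among contrasts with 0 calls, a separate fit gave 1 fall in F1 minus BALB/c and 1 in F1 minus DBA, and 1 rise in F1 minus BALB/c controls. Array weights gave 1 fall in F1 minus BALB/c, 1 rise and 1 fall in F1 minus DBA, 3 rises in BALB/c minus DBA at day 18, 2 falls in BALB/c day 18 minus day 3, 1 rise and 1 fall in F1 minus BALB/c controls and 1 rise in F1 minus DBA controls. In BALB/c day 18 minus day 3 a floor or no code series term gave 1 fall and an offset of 103.7 gave 2. Quantile normalization, no code series term or a pancreatic term gave 1 rise in F1 minus BALB/c controls.

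Leaving out each array in turn gave 4 to 5 rises and 2 falls in DBA day 18, 0 to 1 falls in F1, 0 to 1 rises for BALB/c minus DBA at days 3 and 18, 0 to 1 falls in BALB/c day 18 minus day 3 and in DBA minus BALB/c controls, and 0 to 2 in DBA day 18 minus day 3; other member counts did not move. Genes called over all genes, with the lowest and highest over all alternatives, were 64 (23 to 929) in BALB/c minus DBA at day 3, 31 (6 to 715) in F1 minus BALB/c, 262 (187 to 1643) in F1 minus DBA, 131 (6 to 1290) in BALB/c minus DBA at day 18, 47 (19 to 1089) in BALB/c day 18 minus day 3, 544 (247 to 4165) in DBA day 18 minus day 3, 999 (635 to 2135) in DBA minus BALB/c controls, 348 (87 to 2091) in F1 minus BALB/c controls, 164 (70 to 1239) in F1 minus DBA controls. They were 3874 in DBA day 3 and 5879 with array weights, and 5720 in BALB/c day 18 and 3418 with a separate fit. Median centring moved the share of calls that were higher to 91.3% (77.4% without it) in F1 minus BALB/c, 95.8% (83.6%) in F1 minus DBA, 55.6% (44.3%) in BALB/c minus DBA at day 18, 80.6% (63.8%) in BALB/c day 18 minus day 3, 72.7% (59%) in DBA day 18 minus day 3 and 43.4% (56%) in F1 minus BALB/c controls. No paired analysis was possible because the labels give the arrays no replicate numbers shared between groups. Levels near the offset, as of Saa1 and Ptx3 controls, have sizes that depend on it.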
